A study of Mus musculus with 12 samples.

Results

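The 34 genes described here carry glucose into the cell, split it to pyruvate, exchange pyruvate with lactate, gate its entry into the mitochondrion and run the pentose phosphate pathway. They were chosen by symbol from the 25230 genes counted in 12 RNA-seq libraries of primary mouse mesangial cells (MMC), contractile cells that hold up the capillary loops in the filtering unit of the kidney. MMC were grown from wild-type (WT) mice and from mice of the lncMGC-KO5 line, here KO, and cells of each genotype were depleted of serum (SD) or received TGF-β, 10 ng/ml over 24 h. This gave 4 groups of 3 libraries, WT-SD and KO-SD without TGF-β and WT-TGF and KO-TGF with it. KO5 is 1 of several mutant lines made by Cas9 editing of C57BL/6J embryos with a pair of guide RNAs flanking the start of lncMGC, a long noncoding RNA, and was bred to homozygosity. All cultures came from pooled glomeruli and were kept in RPMI medium with fetal bovine serum. The number of mice behind each group is not given in the sources used here, so p-values measure the spread between libraries, which may be technical. lncMGC itself was not among the genes counted, so its deletion could not be checked, and the genotype is used as the libraries are labelled.

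Glucose enters most cells through facilitative transporters, is trapped by hexokinase, committed by phosphofructokinase and cleaved to triose phosphates, which the lower steps oxidize to pyruvate. Lactate dehydrogenase exchanges pyruvate for lactate, monocarboxylate transporters carry lactate across the membrane, and pyruvate dehydrogenase kinases restrain the complex that passes pyruvate to the citric acid cycle. The pentose phosphate enzymes divert glucose 6-phosphate to NADPH and ribose, and in glomerular cells these routes are studied for the handling of high glucose in diabetes.

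The starts of many glycolytic genes hold the short motif ACGTG or GCGTG, the core of the hypoxia response element bound by HIF factors, or CACGTG, the E-box read by MYC and related factors, which contains ACGTG on each strand. In windows of 300 bases around RefSeq starts in GRCm38.p6 (250 before and 50 after), searched on both strands, ACGTG was present in 22 of 53 windows of the members (41.5%, 33 genes matched) and in 19.6% of 32851 windows of all genes. GCGTG was present in 56.6% against 32.4%, and CACGTG in 11.3% against 7.15%. Base composition was not matched and several members have more than 1 start, so these shares are a description without a test. A match is not a binding site. The 150 bases before 1 start of each of 7 members are printed. They are Slc2a1, a glucose transporter gene, and Hk2, a hexokinase gene, which both rose with TGF-β, the lactate genes, and Eno2, an enolase gene that fell. Of each pair of lactate genes, 1 fell with TGF-β. The sequences read 5′ to 3′, and capitals mark ACGTG or GCGTG on either strand (CACGT and CACGC on the other one).
Slc2a1 (chr4:119108595-119108744, plus strand): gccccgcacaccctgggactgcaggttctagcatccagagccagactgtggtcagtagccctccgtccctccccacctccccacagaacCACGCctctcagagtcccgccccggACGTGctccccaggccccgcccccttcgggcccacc
Hk2 (chr6:82774455-82774604, minus strand): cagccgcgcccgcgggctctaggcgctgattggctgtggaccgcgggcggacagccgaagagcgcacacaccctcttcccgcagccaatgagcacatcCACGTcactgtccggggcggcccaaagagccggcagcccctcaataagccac
Ldha (chr7:46845654-46845803, plus strand): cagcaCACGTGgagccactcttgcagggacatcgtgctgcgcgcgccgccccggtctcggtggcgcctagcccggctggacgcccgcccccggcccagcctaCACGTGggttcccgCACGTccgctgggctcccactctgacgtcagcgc
Ldhb (chr6:142507958-142508107, minus strand): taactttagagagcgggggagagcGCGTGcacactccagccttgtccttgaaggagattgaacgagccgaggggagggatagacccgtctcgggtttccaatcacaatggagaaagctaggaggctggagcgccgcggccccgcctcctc
Slc16a3 (chr11:120948917-120949066, plus strand): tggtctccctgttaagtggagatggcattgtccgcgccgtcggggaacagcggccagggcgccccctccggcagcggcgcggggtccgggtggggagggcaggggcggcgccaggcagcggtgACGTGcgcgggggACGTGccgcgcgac
Slc16a1 (chr3:104638514-104638663, plus strand): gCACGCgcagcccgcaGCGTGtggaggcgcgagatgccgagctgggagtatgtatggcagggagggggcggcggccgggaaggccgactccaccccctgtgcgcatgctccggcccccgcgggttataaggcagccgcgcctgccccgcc
Eno2 (chr6:124769674-124769823, minus strand): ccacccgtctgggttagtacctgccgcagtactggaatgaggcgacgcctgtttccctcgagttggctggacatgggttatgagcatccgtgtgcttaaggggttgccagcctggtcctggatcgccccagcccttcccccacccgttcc
Over the whole windows of these starts, counted on both strands, ACGTG occurred 5 times at Ldha, 3 times at Slc16a1, 2 times at Hk2 and at Slc16a3, 1 time at Slc2a1, and 0 times at Ldhb and Eno2, and a CACGTG adds 2 to its count. GCGTG occurred 2 times at Ldha and Slc16a1, 1 time at Slc2a1 and Ldhb, and 0 times at Hk2, Slc16a3 and Eno2. CACGTG occurred 2 times at Ldha, 1 time at Slc16a1 and 0 times at the others. A further start of Ldha held 0 ACGTG and 2 GCGTG. Among these 7 genes, windows holding ACGTG thus belonged to genes that rose and to Slc16a1, which fell. Members not printed did not follow 1 direction either. Windows of Pfkm, Pdk2 and Pfkfb2, which fell with TGF-β, held ACGTG, and those of Tpi1, Pfkl and Pfkp, which rose, held 0 of this motif. The other motif, GCGTG, was found 1 time at Pfkl and 4 times at Pfkp, which rose, but 0 times at Tpi1. Among the genes that fell, it was found in windows of Pfkm and Pfkfb2 but 0 times at Pdk2.

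The libraries had between 19898050 and 22827706 counts on genes. Genes were tested where RPKM (counts scaled to library size and to kilobases of exon) was over 1 in at least 1 library, which left 11530 genes and 30 of the 34 members. The edgeR fit of all 12 libraries gave a biological coefficient of variation of 0.0268, so small differences passed FDR <5%. Levels are given as CPM (counts scaled to library size, with TMM factors), on which the 3 counts used as a detection floor equal 0.130 to 0.161. KO-SD replicate 1 stood apart, with a chi-square over its degrees of freedom of 5.08 and 4.22 against the other KO-SD libraries, where other pairs of a group had 1.36 to 2.60. Reads outside annotated exons moved with the groups, from 15.2% to 15.4% in WT-SD, 12.2% to 12.5% in WT-TGF, 12.7% to 13.4% in KO-SD and 10.3% to 10.9% in KO-TGF.

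Per length, the most abundant members over the 12 libraries were Aldoa, the aldolase of most tissues, at a mean of 147 RPKM, and Pkm, pyruvate kinase, at 80.1 RPKM. Ldha, the A chain of lactate dehydrogenase, followed at 69.6 RPKM, Pdha1, a subunit of pyruvate dehydrogenase, at 57.8 RPKM and Tpi1, triose phosphate isomerase, at 57.6 RPKM. Pfkfb4 was the member just above the limit for testing, with a mean of 0.775 RPKM and 1.01 in its highest library, and Pfkfb1 the one just below it, at 0.369 and 0.508 RPKM. Slc2a3, a neuronal glucose transporter, and Aldoc, the brain aldolase, had 0 to 6 and 1 to 5 counts per library. Levels of 4 members could not be read as the output of their gene. For Pgk1 (phosphoglycerate kinase), 67.9% of the 51-base windows of its transcripts also occurred in transcripts of genes elsewhere in the genome, for Gapdh (glyceraldehyde 3-phosphate dehydrogenase) 58.1%, for Eno1 (the enolase of most tissues) 49.3% and for Pgam1 (phosphoglycerate mutase) 41.4%. The counting left out reads that align equally well to several places. Gapdh had 9 to 30 counts per library, and its level is therefore not compared with those of the other members.

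**Figure D1:**
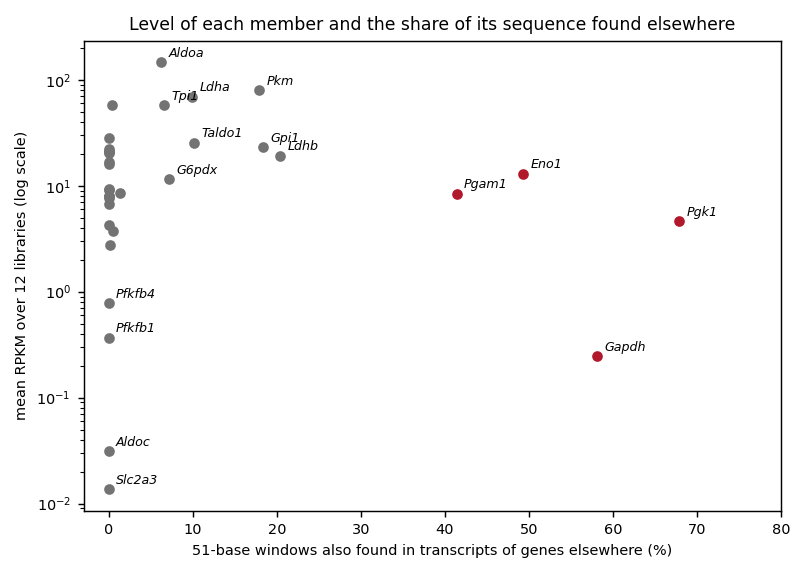
Mean RPKM over 12 libraries (log scale) of each of the 34 members against the percent of its 51-base windows found in transcripts of genes elsewhere; 1 point is 1 gene. The red points are Pgk1, Gapdh, Eno1 and Pgam1, which lie between 41.4% and 67.9%, and every other member lies at 20.4% or less.

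To ask how TGF-β changed these genes in WT MMC, WT-TGF was compared with WT-SD. Of the 30 members tested, 17 rose, 8 fell and 5 did not pass FDR <5%, with a median log2 fold change of 0.28 against 0.00 over all genes tested. Among all genes tested, 36.0% rose and 36.4% fell. The rises included the transporter Slc2a1, hexokinase 2, 4 of the 5 lower glycolysis genes tested, Ldha and the lactate exporter Slc16a3. The falls were in Ldhb, Eno2, Slc16a1, Pfkm, Pfkfb2 and 3 of the 5 genes of the pyruvate dehydrogenase gate. Scaling by library size alone moved the median of all genes by over 0.1, to -0.16, and the members' median to 0.12, with 15 members higher and 12 lower, where 30.4% of all calls were rises in place of 49.7%.

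In KO MMC, 17 of the 30 members rose with TGF-β, 10 fell and 3 did not pass, with a median log2 fold change of 0.23 against -0.03 over all genes. Of all genes tested, 34.9% rose and 39.1% fell. 16 members rose in both genotypes and 8 fell in both, 53.3% and 26.7% of those tested, against 30.1% and 31.9% of all genes. Only Pfkfb3, 1 of the 30 members tested, was called in opposite directions in WT and KO. Of all 11530 genes tested, 102 rose in WT and fell in KO, and 43 fell in WT and rose in KO. With library size alone 15 members were higher and 14 lower in KO, with a median of 0.03. Under that scaling 25.5% of all calls were rises in place of 47.2%, and the median of all genes was -0.23. Leaving out Pgk1, Eno1 and Pgam1, an alternative chosen after seeing the data, gave 14 higher and 8 lower in WT (median 0.21) and 14 higher and 10 lower in KO (median 0.06).

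**Figure D2:**
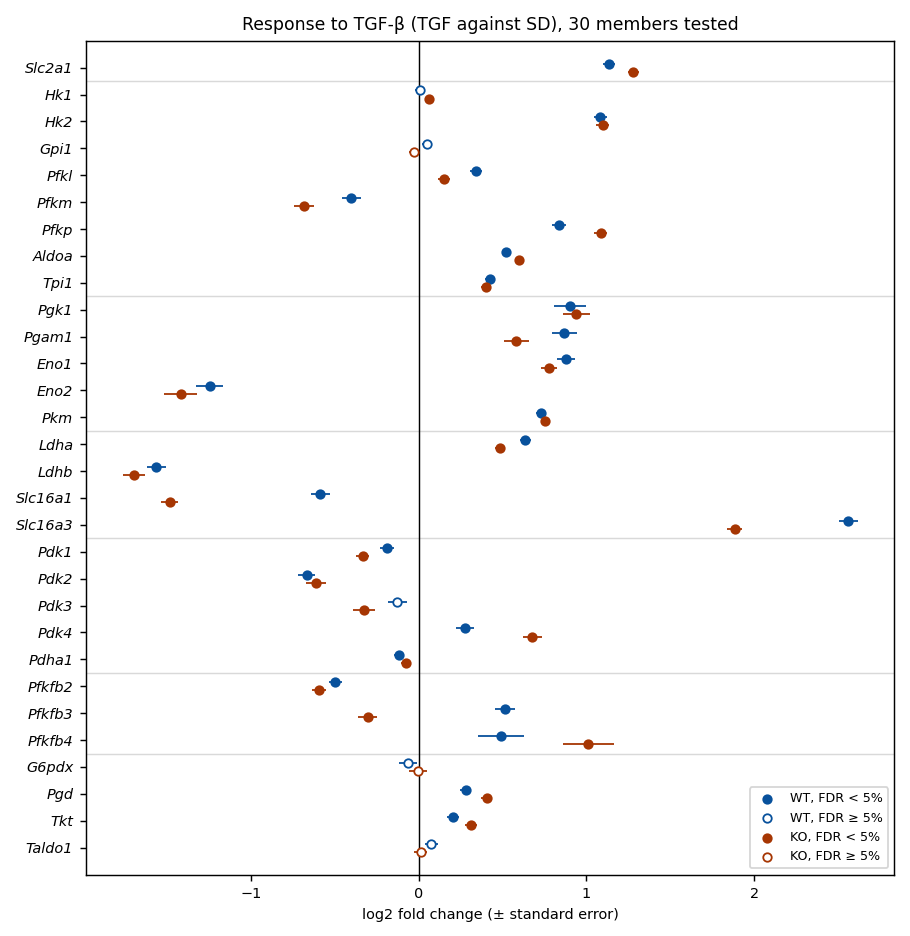
Log2 fold change of TGF against SD (x axis, with standard error bars) for the 30 members tested, in WT (blue) and KO (brown), ordered by role; filled points passed FDR <5%. Slc16a3 lies farthest to the right in both genotypes and Ldhb farthest to the left. Pfkfb3 passed on opposite sides of 0, and Gpi1 also changes side without passing in either genotype.

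The difference between the genotypes was read from KO-SD against WT-SD and from KO-TGF against WT-TGF, which share no library. Both set cultures of the KO line against WT cultures, so genotype cannot be told apart from other differences between the cultures. In SD, 18 members were higher in KO, 7 were lower and 5 did not pass, with a median log2 fold change of 0.28 against 0.02 over all genes, of which 30.9% were higher and 25.2% lower. In TGF, 18 were higher, 6 lower and 6 did not pass, with a median of 0.21 against 0.00 over all genes, of which 27.3% were higher and 27.8% lower. 17 members were higher in KO in both conditions and 4 lower in both (Eno2, Ldhb, Pdk2 and Pdk3), 56.7% and 13.3% of those tested, against 19.8% and 18.3% of all genes. With library size alone the counts were 17 higher and 9 lower in SD and 15 higher and 11 lower in TGF, where the median of all genes moved to -0.13 and that of the members to 0.09. Higher levels in KO then made up 36.8% of all calls in SD and 23.3% in TGF, in place of 55.1% and 49.5%. The 34 members together took 0.266% ± 0.0023 of all gene counts in WT-SD (SD, n = 3), 0.301% ± 0.0070 in WT-TGF, 0.302% ± 0.0052 in KO-SD and 0.339% ± 0.0048 in KO-TGF. No library of a lower group reached a library of the higher one in any of the 4 comparisons (exact permutation test, two-sided p = 0.1, the smallest that 3 against 3 allows).

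Markers of other cells moved with the groups too. Mesangial and smooth muscle markers (9 of 10 above the floor in every group, Thy1 at or under it) summed to 2906 to 3047 CPM in WT-SD, 6011 to 6155 in WT-TGF, 5178 to 5368 in KO-SD and 11118 to 11193 in KO-TGF. Single markers did not all follow the sum. Of 8 tested, 5 rose and 2 fell with TGF-β in WT, and 6 rose and 2 fell in KO. In KO against WT, 6 were higher and 2 lower in SD, and 5 higher and 3 lower in TGF. Podocyte markers (4 of 7 above the floor) summed to 455 to 474 CPM in the WT groups and to 205 to 227 CPM in the KO groups, with Nphs1 and Ptpro among those at or under the floor. Their sums hide changes of single markers with TGF-β. Among the 4 tested, 1 rose and 3 fell with TGF-β in each genotype, and 4 were lower in KO in both conditions. Tubular markers (4 of 9, with Slc34a1, Umod, Slc12a3, Aqp2 and Epcam at or under the floor) fell from 71.2 to 77.3 CPM in WT-SD to 21.8 to 25.4 in WT-TGF, 17.7 to 18.4 in KO-SD and 12.2 to 13.3 in KO-TGF. Endothelial markers (2 to 4 of 6, with Cdh5 and Emcn at or under the floor throughout) summed to 32.9 to 33.3, 20.1 to 22.5, 17.2 to 18.4 and 9.25 to 10.9 CPM in the same order. Macrophage markers (7 of 7 in WT) summed to 15.8 to 28.1 CPM in the WT groups and to 0.802 to 2.22 CPM in the KO groups, where Adgre1, Ptprc, Itgam and C1qa were at or under the floor. Their part in the differences between the members was not tested. In bulk RNA a change in the number of cells of a type and a change in RNA per cell cannot be told apart.

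**Figure D3:**
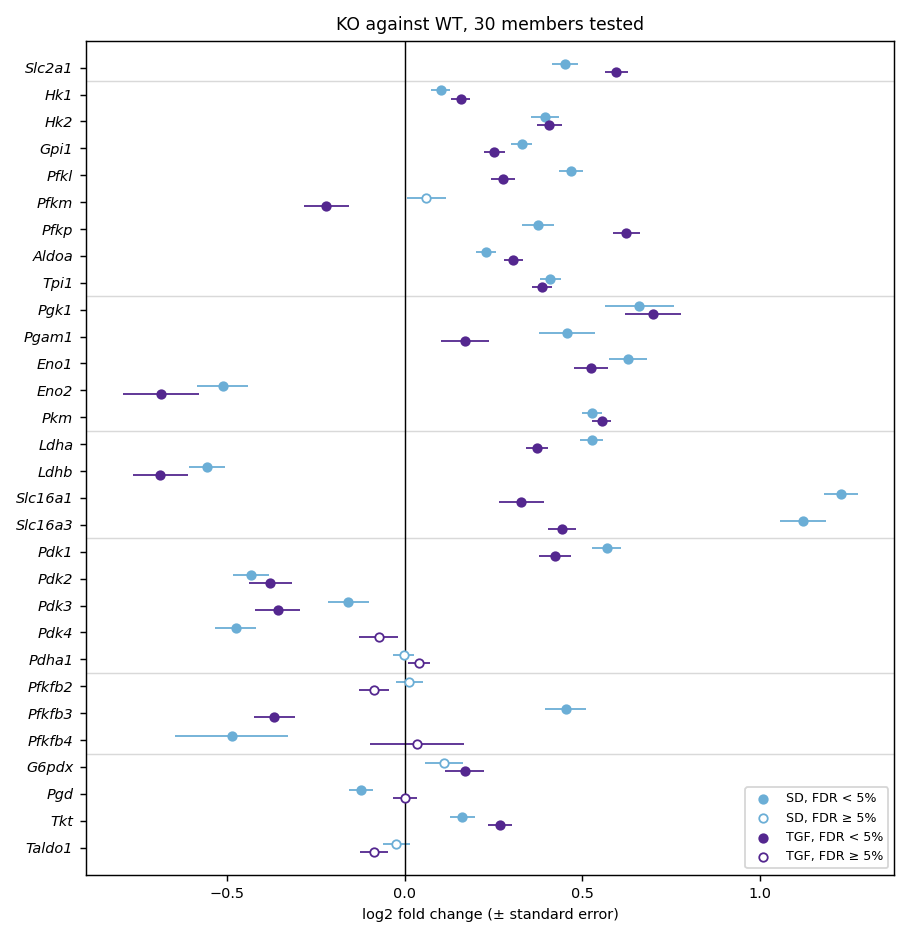
Log2 fold change of KO against WT (x axis, with standard error bars) for the 30 members tested, in SD (light blue) and TGF (purple), ordered by role; filled points passed FDR <5%. Most points lie to the right of 0. Eno2, Ldhb, Pdk2 and Pdk3 lie to the left and passed FDR <5% in both conditions, and Pdk4 and Taldo1 also lie to the left in both. Pfkfb3 passed on opposite sides of 0, while Pfkm, Pfkfb2, Pfkfb4, Pgd and Pdha1 change side without passing in both conditions.

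The TGF-β responses of the genotypes were compared by their interaction, the response in KO minus that in WT. It passed FDR <5% for 10 members, 3 with a higher response in KO (Slc2a1, Pfkp and Pdk4) and 7 with a lower one (Slc16a1, Slc16a3, Pfkfb3, Pfkl, Pfkm, Pgam1 and Ldha). Among all genes tested, 8.67% had a higher and 16.6% a lower response in KO, and the members' counts are 3 and 7 of 30. The median was -0.04 for the members and -0.03 for all genes. With library size alone 2 members were higher and 10 lower. Higher responses in KO then made up 20.6% of all calls, in place of 34.3%. Without KO-TGF replicate 1 the split became 6 higher and 4 lower, and without KO-TGF replicate 2 the number lower was also 4.

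Among the glucose import genes, the Slc2a1 transcript rose with TGF-β, and glucose uptake itself is not measured by these counts. Slc2a1, which encodes the transporter GLUT1, had 50.3, 49.3 and 52.2 CPM in WT-SD, 109.8, 113 and 111 in WT-TGF, 68.6, 70.7 and 68.2 in KO-SD, and 164, 167 and 173 in KO-TGF. Every WT-TGF library was above every WT-SD library, and the KO libraries were higher than the WT libraries in each condition. The log2 fold change with TGF-β was 1.14 (SE 0.036, adjusted p = 1.13e-22) in WT, a 2.2-fold rise, and 1.28 (SE 0.034, adjusted p = 9.67e-25) in KO. KO exceeded WT by 0.45 (SE 0.037, adjusted p = 8.64e-12) in SD and by 0.60 (SE 0.032, adjusted p = 2.77e-16) in TGF. The interaction of 0.14 (SE 0.049, adjusted p = 0.0302) did not pass FDR <5% in 7 of the alternatives, among them library size alone and 5 fits with 1 library left out, and over all alternatives it ranged from 0.10 to 0.20. Slc2a3 was at or near the floor in every group and passed no test.

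In upper glycolysis, hexokinase 2 rose and hexokinase 1 changed with TGF-β by under 0.1 on the log2 scale. Hk2, the inducible isoenzyme, had 50.9, 55.8 and 52.5 CPM in WT-SD, 112, 111 and 115 in WT-TGF, 69.5, 72.8 and 67.2 in KO-SD, and 149, 146 and 153 in KO-TGF. Its groups did not overlap in any of the 4 comparisons. Its log2 fold changes with TGF-β were 1.08 in WT and 1.10 in KO (SE 0.038 and 0.037, adjusted p = 2.19e-21 and 4.75e-22). It was higher in KO by 0.39 in SD and 0.41 in TGF (adjusted p = 7.57e-10 and 1.78e-11). Hk1, the isoenzyme of most tissues, went from a mean of 174 ± 3.56 CPM in WT-SD to 175 ± 4.08 CPM in WT-TGF (SD, n = 3), a log2 fold change of 0.01 (SE 0.027, adjusted p = 0.786) that became a fall past FDR <5% with library size alone (-0.15, adjusted p = 8.23e-06). In KO the change of Hk1 was 0.06 (SE 0.027, adjusted p = 0.032), which did not pass without KO-SD replicate 2 or 3 and became a fall past FDR <5% with library size alone (-0.14, adjusted p = 2.08e-05). Of the RPKM of the pair, Hk2 took 30.4% ± 0.55 in WT-SD, 47.9% ± 0.14 in WT-TGF, 34.8% ± 0.96 in KO-SD and 52.2% ± 0.55 in KO-TGF (exact permutation p = 0.1 for each comparison, the smallest possible). Coding length gave 26.1%, 42.7%, 30.2% and 47% in the same order, so Hk2 then stayed below Hk1 in KO-TGF too.

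Gpi1, glucose 6-phosphate isomerase, did not pass the test for TGF-β (log2 fold changes of 0.05 in WT and -0.03 in KO) but was higher in KO by 0.33 (SE 0.030, adjusted p = 7.65e-11) in SD and 0.25 (SE 0.030, adjusted p = 2.44e-08) in TGF. Scaled by library size alone, Gpi1 fell with TGF-β past FDR <5% (-0.11 in WT, adjusted p = 0.00186, and -0.23 in KO, adjusted p = 2.54e-08), and in WT it passed as a rise with both other filters and without WT-SD replicate 3. The 3 phosphofructokinase genes, whose enzyme commits sugar to glycolysis, moved apart. Pfkp, the platelet type, had 32.6, 34 and 34.7 CPM in WT-SD, 60.9, 59.3 and 60.8 in WT-TGF, 42.5, 44.3 and 44.6 in KO-SD, and 90.5, 97.9 and 90.5 in KO-TGF. It rose by 0.84 (SE 0.043, adjusted p = 3.87e-17) in WT and 1.09 (SE 0.040, adjusted p = 6.17e-21) in KO, and the responses differed by 0.25 (SE 0.059, adjusted p = 0.00187), a call that every alternative kept. Pfkl, the liver type, rose by 0.34 (SE 0.035, adjusted p = 2.92e-10) in WT and by 0.15 (SE 0.033, adjusted p = 0.000165) in KO, where library size alone gave -0.05. The interaction of Pfkl was -0.19 (SE 0.048, adjusted p = 0.00291) and did not pass without KO-TGF replicate 1.

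Pfkm, the muscle type of the enzyme, had 62.7, 67.6 and 66.4 CPM in WT-SD, 46.4, 53.4 and 49.1 in WT-TGF, 59.4, 72.4 and 73.5 in KO-SD, and 43.3, 40.9 and 43.6 in KO-TGF. Pfkm fell by 0.40 on the log2 scale (SE 0.058, adjusted p = 3.68e-07) in WT and by 0.68 on the log2 scale (SE 0.060, adjusted p = 1.62e-11) in KO, a difference of -0.28 (SE 0.084, adjusted p = 0.0123) that did not pass without WT-TGF or KO-TGF replicate 2. In SD its difference between KO and WT was 0.06 (SE 0.056, adjusted p = 0.364) and passed without KO-SD replicate 1, at 0.15 (adjusted p = 0.0025). Of the RPKM of the 3 genes, Pfkm took 49.8% ± 1.46 in WT-SD, 36.0% ± 1.79 in WT-TGF, 42.9% ± 2.26 in KO-SD and 27.6% ± 1.25 in KO-TGF. The share of Pfkp was 6.38%, 10.9%, 6.87% and 15% in the same order, and the remainder was Pfkl. With coding length in place of exon length, the share of Pfkl turned from higher to lower with TGF-β in KO and in KO-TGF against WT-TGF. The order of the shares depended on the length used. With coding length Pfkm took 29.7%, Pfkl 55.8% and Pfkp 14.5% in WT-SD.

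Aldoa rose with TGF-β from 318 ± 8.88 CPM to 457 ± 11.4 CPM in WT and from 373 ± 11.5 CPM to 565 ± 12.3 CPM in KO (SD, n = 3). The log2 fold changes were 0.52 (SE 0.028, adjusted p = 7.73e-17) and 0.60 (SE 0.027, adjusted p = 1.55e-18). Tpi1 rose by 0.43 and 0.40 on the same scale. Both were higher in KO in each condition, Aldoa by 0.23 and 0.31 and Tpi1 by 0.41 and 0.39 in SD and TGF. Aldoc passed no test at 0.0473 to 0.227 CPM.

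Among the lower glycolysis genes, Pkm and Eno2 shared 17.9% and 0.169% of their windows with other genes. Pkm, which makes pyruvate, had 245, 239.7 and 251 CPM in WT-SD, 403, 396 and 420.2 in WT-TGF, 346, 354 and 361 in KO-SD, and 580.2, 600.5 and 609 in KO-TGF. The 4 groups did not overlap, and KO-TGF was the highest. Pkm rose by 0.73 (SE 0.028, adjusted p = 1.53e-20) in WT and 0.76 (SE 0.027, adjusted p = 2.84e-21) in KO, and was higher in KO by 0.53 (SE 0.028, adjusted p = 1.65e-16) in SD and 0.55 (SE 0.027, adjusted p = 2.10e-17) in TGF. The interaction was 0.03 (SE 0.039, adjusted p = 0.687).

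Pgk1, Pgam1 and Eno1 had few or shared counts and are given with that limit. Pgk1, the first ATP-forming step, rose by 0.90 (SE 0.094, adjusted p = 7e-10) in WT and 0.94 (SE 0.081, adjusted p = 8.04e-12) in KO and was higher in KO by 0.66 in SD and 0.70 in TGF. Eno1 rose by 0.88 (SE 0.052, adjusted p = 1.41e-15) and 0.78 (SE 0.048, adjusted p = 3.62e-15) and was higher in KO by 0.63 and 0.52. Pgam1 rose by 0.87 (SE 0.075, adjusted p = 1.19e-11) and 0.58 (SE 0.072, adjusted p = 1.60e-08). Its difference in TGF, 0.17 (SE 0.068, adjusted p = 0.0347), did not pass with library size alone, DESeq2 or 3 fits with 1 library left out, and its interaction of -0.29 (SE 0.10, adjusted p = 0.0437) did not pass in 10 alternatives. Gapdh, read from the fit of all genes, had 0.591, 0.52 and 0.774 CPM in WT-SD, 1.42, 1.29 and 1.09 in WT-TGF, 0.413, 0.917 and 1.10 in KO-SD, and 1.18, 1.60 and 1.31 in KO-TGF. It changed by 1.04 (SE 0.28, adjusted p = 0.000588) in WT and 0.76 (SE 0.27, adjusted p = 0.0106) in KO, and the KO-SD libraries overlapped those of WT-SD.

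Eno2, the neuronal enolase, went the other way. It had 22, 20.9 and 21.8 CPM in WT-SD, 9.22, 10 and 7.95 in WT-TGF, 13.9, 15.1 and 16.4 in KO-SD, and 5.73, 6.15 and 5.10 in KO-TGF. Every TGF library was below every SD library of its genotype, and every KO library was below every WT library of its condition. Eno2 fell by 1.24 on the log2 scale (SE 0.080, adjusted p = 9.12e-15) in WT and by 1.42 on the log2 scale (SE 0.097, adjusted p = 4e-14) in KO. It was lower in KO at log2 fold changes of -0.51 in SD and -0.68 in TGF (adjusted p = 4.25e-07 and 2.69e-06). Of the enolase RPKM, Eno2 took 38.3% ± 0.65 in WT-SD, 12.4% ± 1.59 in WT-TGF, 22% ± 1.09 in KO-SD and 5.82% ± 0.73 in KO-TGF, shares that rest on the uncertain level of Eno1.

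**Figure D4:**
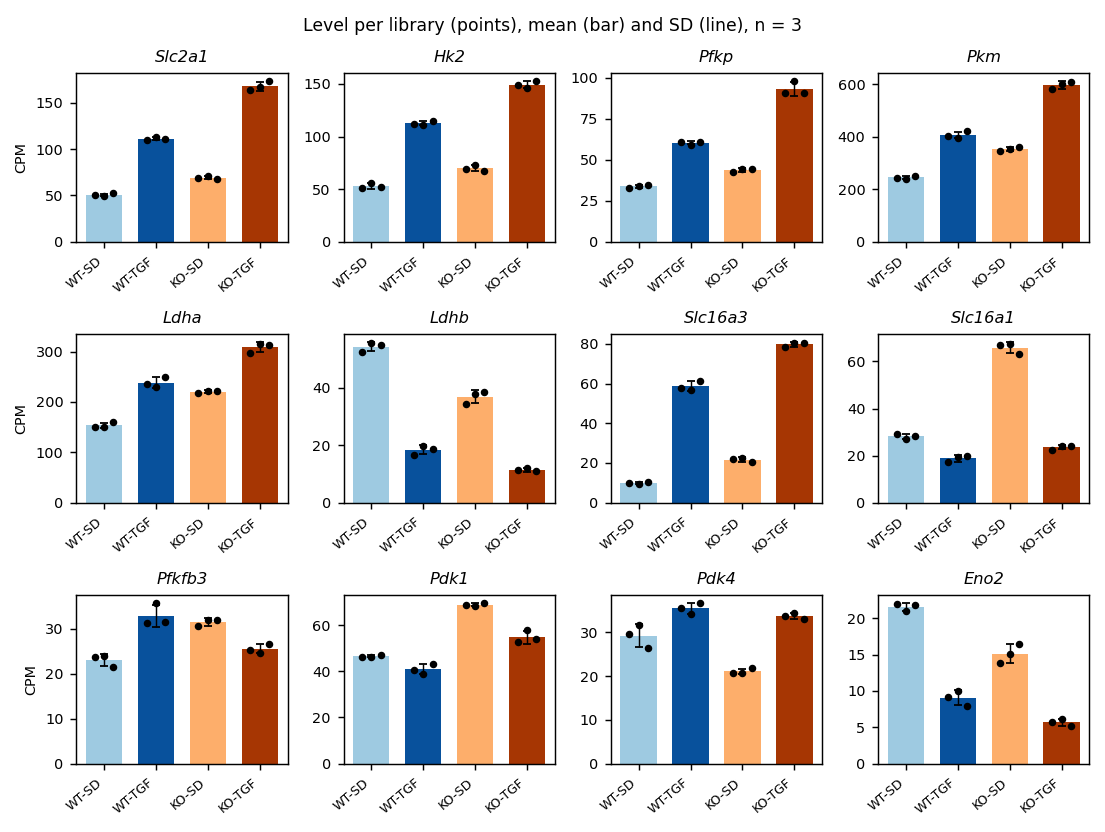
CPM (y axis, starting at 0) of 12 members in each library (points), with the group mean (bar) and SD (line, n = 3), for the SD and TGF groups of each genotype. Slc2a1, Hk2, Pfkp, Pkm, Ldha and Slc16a3 are highest in KO-TGF, Ldhb and Eno2 lowest there, Slc16a1 and Pdk1 highest in KO-SD, and Pfkfb3 highest on average in WT-TGF.

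The lactate genes included the largest rise and the largest fall with TGF-β among the members tested. Ldha, whose A chain favors the step from pyruvate to lactate, had 150.4, 149 and 159.9 CPM in WT-SD, 235, 230.3 and 250.1 in WT-TGF, 218, 222 and 221 in KO-SD, and 297, 315 and 314 in KO-TGF. It rose by 0.64 (SE 0.032, adjusted p = 2.57e-17) in WT and 0.48 (SE 0.031, adjusted p = 8.91e-15) in KO and was higher in KO by 0.53 (SE 0.032, adjusted p = 7.31e-15) in SD and 0.37 (SE 0.031, adjusted p = 9.98e-12) in TGF. KO-SD and WT-TGF lay close, at 221 ± 2.17 CPM and 238 ± 10.4 CPM. Its interaction of -0.15 (SE 0.045, adjusted p = 0.011) did not pass with DESeq2 or in 4 fits with 1 library left out, each of the KO-TGF libraries among them.

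Ldhb, whose B chain favors the step from lactate to pyruvate, had 52.4, 55.5 and 54.8 CPM in WT-SD, 16.6, 19.7 and 18.6 in WT-TGF, 34.3, 37.8 and 38.7 in KO-SD, and 11.2, 12.1 and 10.9 in KO-TGF. The order of the groups was the reverse of that of Slc2a1, with WT-SD highest and KO-TGF lowest. Ldhb fell by 1.56 on the log2 scale (SE 0.057, adjusted p = 4.21e-21) in WT and by 1.70 on the log2 scale (SE 0.068, adjusted p = 5.24e-20) in KO. It was lower in KO at log2 fold changes of -0.56 (SE 0.050, adjusted p = 5.65e-11) in SD and -0.69 (SE 0.077, adjusted p = 5.86e-09) in TGF. Of the RPKM of the pair, Ldha took 57.2% ± 1.07 in WT-SD, 86.0% ± 1.20 in WT-TGF, 73.9% ± 1.05 in KO-SD and 92.8% ± 0.36 in KO-TGF, without overlap between the groups compared (exact permutation p = 0.1, the smallest possible). With coding length the same shares were 72.3%, 92.3%, 84.7% and 96.2%.

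The monocarboxylate transporters exchanged places with TGF-β. Slc16a3 encodes MCT4, the form associated with lactate export from glycolytic cells, and had 9.78, 9.58 and 10.5 CPM in WT-SD, 58, 56.9 and 61.4 in WT-TGF, 22.1, 22.5 and 20.3 in KO-SD, and 78.5, 80.3 and 80.5 in KO-TGF. Every TGF library was above every SD library, and KO-TGF was above WT-TGF. Slc16a3 rose by 2.56 (SE 0.055, adjusted p = 6.02e-27) in WT, a 5.91-fold change, and by 1.88 (SE 0.046, adjusted p = 1.76e-25) in KO, a 3.69-fold change. KO exceeded WT by 1.12 (SE 0.065, adjusted p = 1.85e-15) in SD and by 0.44 (SE 0.040, adjusted p = 4.99e-11) in TGF. The response in KO was lower, with an interaction of -0.68 (SE 0.077, adjusted p = 3.54e-08), while the level in KO-TGF was the highest of the 4 groups.

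Slc16a1, which encodes MCT1, a carrier of lactate and pyruvate in both directions, had 29.2, 26.9 and 28.4 CPM in WT-SD, 17.2, 19.2 and 19.9 in WT-TGF, 67.1, 67.4 and 63.3 in KO-SD, and 22.4, 24.2 and 24.1 in KO-TGF. KO-SD stood above the other groups without overlap, and WT-TGF was the lowest. Slc16a1 fell by 0.58 on the log2 scale (SE 0.058, adjusted p = 2.66e-10) in WT and by 1.48 on the log2 scale (SE 0.051, adjusted p = 9.45e-22) in KO, and the responses differed by -0.90 (SE 0.079, adjusted p = 2.03e-10). It was higher in KO by 1.23 (SE 0.048, adjusted p = 7.57e-20) in SD and 0.33 (SE 0.062, adjusted p = 4.15e-05) in TGF. Of the RPKM of the pair, Slc16a3 took 22.7% ± 0.85 in WT-SD and 72.3% ± 1.31 in WT-TGF, and 21.4% ± 0.33 in KO-SD and 73.8% ± 0.55 in KO-TGF. The KO and WT shares differed by 1.28 percentage points in SD (p = 0.1) and by 1.53 in TGF (p = 0.3, exact permutation tests), where the libraries overlapped. Emb and Bsg encode embigin and basigin, the chaperones of these transporters. Emb changed by -0.43 with TGF-β in WT and -0.91 in KO and was higher in KO by 1.11 (SE 0.063, adjusted p = 9.99e-16) in SD and 0.63 (SE 0.077, adjusted p = 3.29e-08) in TGF. Its interaction was -0.48 (SE 0.10, adjusted p = 0.000432). Bsg was higher in KO by 0.33 and 0.32, and its TGF-β responses of 0.13 and 0.12 became -0.03 and -0.08 with library size alone. Bsg, and Emb in WT, fall outside the rule for named genes and were picked with their values known.

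**Figure D5:**
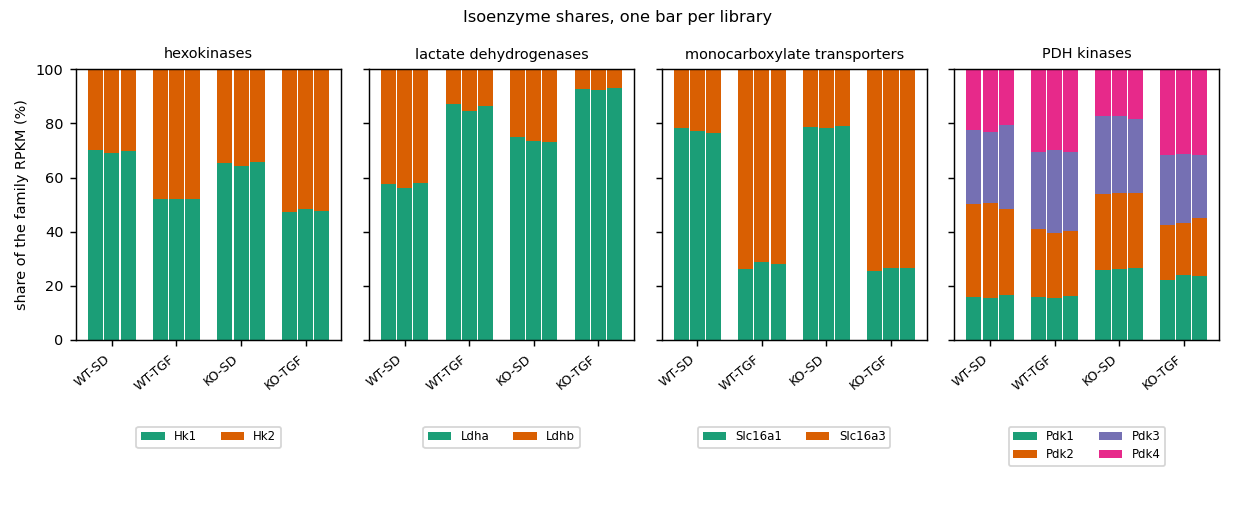
Share of the summed RPKM (percent, y axis from 0 to 100) of the hexokinase, lactate dehydrogenase, monocarboxylate transporter and pyruvate dehydrogenase kinase genes among the members, 1 bar per library. Slc16a3 goes from 22.7% to 72.3% with TGF-β in WT and from 21.4% to 73.8% in KO, and Ldha and Hk2 also take larger shares in TGF than in SD.

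At the pyruvate dehydrogenase gate, the 4 kinases that switch the complex off did not move together. Pdk1 had 46.1, 46.4 and 46.9 CPM in WT-SD, 40.4, 39 and 43.2 in WT-TGF, 69, 68.3 and 69.7 in KO-SD, and 52.5, 57.8 and 53.9 in KO-TGF. All KO libraries were above all WT libraries, by 0.57 (SE 0.041, adjusted p = 2.79e-13) in SD and 0.42 (SE 0.044, adjusted p = 1.25e-09) in TGF. With TGF-β, Pdk1 fell by 0.19 on the log2 scale (SE 0.044, adjusted p = 0.000349) in WT and by 0.33 on the log2 scale (SE 0.041, adjusted p = 1.50e-08) in KO. Pdk2 fell by 0.67 on the log2 scale (SE 0.052, adjusted p = 1e-12) in WT and by 0.61 on the log2 scale (SE 0.059, adjusted p = 1.02e-10) in KO and was lower in KO at log2 fold changes of -0.43 and -0.38. Pdk3 fell in KO by 0.33 on the log2 scale (SE 0.064, adjusted p = 3.99e-05), while its change in WT was -0.13 (SE 0.058, adjusted p = 0.0529) and passed in 9 alternatives. Pdk3 was lower in KO in TGF, at a log2 fold change of -0.36 (SE 0.064, adjusted p = 1.91e-05), and in SD at -0.16 (SE 0.058, adjusted p = 0.0226), which did not pass without a filter or without WT-SD or KO-SD replicate 3.

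Pdk4, the kinase induced in fasting, had 29.7, 31.6 and 26.5 CPM in WT-SD, 35.5, 34.2 and 36.7 in WT-TGF, 20.8, 20.6 and 21.7 in KO-SD, and 33.8, 34.4 and 33 in KO-TGF. It rose by 0.28 (SE 0.054, adjusted p = 3.62e-05) in WT, which did not pass with library size alone (0.12, adjusted p = 0.051), and by 0.68 (SE 0.059, adjusted p = 1e-11) in KO. It was lower in KO in SD, at a log2 fold change of -0.48 (SE 0.059, adjusted p = 3.71e-08), and its difference in TGF was -0.07 (SE 0.054, adjusted p = 0.263), which passed with library size alone. The responses differed by 0.40 (SE 0.080, adjusted p = 0.000242), in every alternative. Of the kinase RPKM, Pdk1 took 15.8% ± 0.53 in WT-SD, 15.8% ± 0.44 in WT-TGF, 26.1% ± 0.33 in KO-SD and 23.1% ± 0.89 in KO-TGF. Pdk4 took 22%, 30.4%, 17.7% and 31.5% in the same order. With coding length Pdk1 took 31.2%, 31%, 46.4% and 41.6%, the largest share of the 4 kinases in each group. Pdk4 then took 20.7%, 28.4%, 14.9% and 27%. Pdha1, the target subunit, fell slightly, by 0.12 on the log2 scale (SE 0.029, adjusted p = 0.000632) in WT and by 0.08 on the log2 scale (SE 0.030, adjusted p = 0.0232) in KO, the latter not passing in 8 alternatives, and its differences between KO and WT were 0.00 in SD and 0.04 in TGF, neither past FDR <5%. Both became -0.08 with library size alone and passed (adjusted p = 0.0205 and 0.0186). Pdp1, a phosphatase that switches the complex on, fell by 0.86 on the log2 scale (SE 0.058, adjusted p = 2.43e-14) in WT and by 1.09 on the log2 scale (SE 0.059, adjusted p = 1.19e-16) in KO.

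The bifunctional enzymes that set fructose 2,6-bisphosphate, the activator of phosphofructokinase, included the member called in opposite directions in WT and KO. Pfkfb3, the form with the strongest kinase activity, had 23.7, 23.9 and 21.5 CPM in WT-SD, 31.3, 35.8 and 31.6 in WT-TGF, 30.6, 32 and 32.1 in KO-SD, and 25.3, 24.7 and 26.6 in KO-TGF. In WT the TGF libraries were all above the SD libraries, and in KO they were all below them. Pfkfb3 rose by 0.52 (SE 0.057, adjusted p = 2.49e-09) in WT and fell by 0.30 on the log2 scale (SE 0.059, adjusted p = 3.09e-05) in KO, a difference of -0.82 (SE 0.082, adjusted p = 3.07e-09) that every alternative kept. It was higher in KO in SD by 0.45 (SE 0.058, adjusted p = 6.63e-08) and lower in KO in TGF, at a log2 fold change of -0.37 (SE 0.058, adjusted p = 3.16e-06).

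Pfkfb2, the heart form, fell by 0.49 on the log2 scale (SE 0.039, adjusted p = 1.56e-12) in WT and by 0.59 on the log2 scale (SE 0.041, adjusted p = 3.39e-14) in KO, with differences between KO and WT of 0.01 and -0.09 in SD and TGF that did not pass, the latter passing with library size alone (-0.21, adjusted p = 0.000104). Pfkfb4, at 2.22 to 5.04 CPM, rose by 0.49 (SE 0.14, adjusted p = 0.00217) in WT and 1.01 (SE 0.15, adjusted p = 6.57e-07) in KO. It was lower in KO in SD, at a log2 fold change of -0.49 (SE 0.16, adjusted p = 0.0102), which did not pass without WT-SD replicate 1. Pfkfb1, the liver form, passed no test at 1.07 to 1.98 CPM. Of the RPKM of the 4 genes, Pfkfb3 took 22.5% ± 0.99 in WT-SD, 35.1% ± 2.21 in WT-TGF, 28.5% ± 1.10 in KO-SD and 30.7% ± 1.56 in KO-TGF (exact permutation p = 0.1 for each comparison).

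The pentose phosphate genes changed by at most 0.41 on the log2 scale with TGF-β. Pgd, 6-phosphogluconate dehydrogenase and the second source of NADPH on this route, rose from 121 ± 2.72 CPM to 147 ± 6.69 CPM in WT, by 0.28 (SE 0.033, adjusted p = 7.60e-09), and from 111 ± 3.52 CPM to 147 ± 2.94 CPM in KO, by 0.41 (SE 0.034, adjusted p = 4.05e-12). It was lower in KO in SD, at a log2 fold change of -0.12 (SE 0.034, adjusted p = 0.00272) and did not differ past the threshold in TGF (0.00), while with library size alone it was lower there (-0.12, adjusted p = 0.00191). Tkt, transketolase, rose by 0.21 (SE 0.035, adjusted p = 4.84e-06) in WT, which did not pass with library size alone, and by 0.31 (SE 0.034, adjusted p = 1.82e-09) in KO, and was higher in KO by 0.16 in SD and 0.27 in TGF. G6pdx, the entry enzyme, changed with TGF-β by -0.06 in WT and 0.00 in KO, neither past FDR <5%, and with library size alone both were falls that passed (-0.22 and -0.21, adjusted p = 0.00052 and 0.000859). Its difference in TGF, 0.17 (SE 0.055, adjusted p = 0.00997), did not pass with library size alone (0.0481, adjusted p = 0.46) or without KO-TGF replicate 3, which had 41.6 CPM against 34.4 and 35.8 in the other KO-TGF libraries. Taldo1, transaldolase, passed no test with TMM and the RPKM filter, with TGF-β changes of 0.08 in WT and 0.01 in KO. Its change in WT passed with both other filters and without WT-TGF replicate 1, and with library size alone it fell in KO (-0.19, adjusted p = 7.18e-05) and was lower in KO in both conditions.

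Other genes of these routes were counted from lists of the same pathways. For comparison, 36.0% of all genes tested rose and 36.4% fell with TGF-β in WT, and 34.9% and 39.1% in KO. Between genotypes, 30.9% were higher and 25.2% lower in KO-SD, and 27.3% and 27.8% in KO-TGF. Under library size alone, 30.4%, 25.5%, 36.8% and 23.3% of all calls were rises or higher levels in the same order. These shares apply to every list below. Of 16 tested among 31 other glycolysis and glucose-handling genes, 9 rose and 3 fell with TGF-β in WT and 10 rose and 3 fell in KO, and 7 were higher and 2 lower in KO-SD against 3 and 3 in KO-TGF. With library size alone these counts were 9 and 5, 5 and 4, 5 and 6, and 3 and 7. Pck2, the mitochondrial enzyme that makes phosphoenolpyruvate, rose by 0.54 and 0.81 in WT and KO and was higher in KO by 0.81 (SE 0.048, adjusted p = 2.57e-15) in SD and 1.08 (SE 0.044, adjusted p = 2.35e-19) in TGF. Adpgk, an ADP-dependent glucokinase, rose by 0.64 and 0.78, and Galm, which interconverts glucose anomers, fell by 1.62 and 2.0 on the log2 scale. Of 10 tested among 13 other pentose phosphate genes, 3 rose and 4 fell in WT and 1 rose and 4 fell in KO, which became 0 and 5 and 0 and 6 with library size alone, while 3 and 3 in KO-SD became 0 and 3. H6pd, the hexose dehydrogenase of the endoplasmic reticulum, was lower in KO at log2 fold changes of -0.45 in SD and -0.63 in TGF. Of 11 tested among 16 lactate, pyruvate entry and PDH genes, 4 rose and 4 fell in WT, 5 rose and 4 fell in KO, 5 were higher and 0 lower in KO-SD, and 6 higher and 0 lower in KO-TGF. With library size alone the counts became 3 and 5, 3 and 7, 4 and 1, and 3 and 3.

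Among 9 tested of 13 glycogen genes, 4 rose and 4 fell in each genotype, and 6 and 7 were higher against 2 and 2 lower in KO in SD and TGF (3 and 2 in TGF with library size alone). Stbd1, a glycogen-binding protein, rose by 1.12 in WT and 1.09 in KO and was higher in KO by 1.25 (SE 0.066, adjusted p = 1.90e-16) in SD and 1.21 (SE 0.052, adjusted p = 1.14e-18) in TGF, so that its mean went from 12.4 ± 0.5 CPM in WT-SD to 62.5 ± 1.24 CPM in KO-TGF (SD, n = 3). Gys1, glycogen synthase, rose by 0.49 and 0.73, and Gaa, which degrades glycogen in lysosomes, fell by 0.88 and 0.98. Of 21 tested among 22 citric acid cycle genes, 8 rose and 5 fell in WT and 11 rose and 4 fell in KO (5 and 12, and 6 and 12, with library size alone). Pcx, pyruvate carboxylase, fell by 1.24 on the log2 scale (SE 0.060, adjusted p = 7.45e-18) in WT and by 1.61 on the log2 scale (SE 0.075, adjusted p = 2.99e-18) in KO and was lower in KO at log2 fold changes of -0.60 and -0.96 in SD and TGF. Idh2 and Suclg2 fell by 0.86 and 0.76 in WT, and Idh3a, of the NAD-linked isocitrate dehydrogenase, rose by 0.63.

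Regulators of glucose use and other HIF target genes were read in the same fit. Shares over all genes tested were again 36.0% up and 36.4% down in WT, and 34.9% and 39.1% in KO. For KO-SD they were 30.9% higher and 25.2% lower, and for KO-TGF 27.3% and 27.8%. Of 20 regulators tested of 22, 6 rose and 8 fell in WT, 7 rose and 7 fell in KO, 6 were higher and 6 lower in KO-SD, and 6 and 5 in KO-TGF. With library size alone the counts were 4 and 11, 2 and 14, 5 and 7, and 4 and 11. Myc, a transcription factor with many glycolytic targets, had 13.1 ± 0.119 CPM in WT-SD, 39 ± 1.06 CPM in WT-TGF, 19 ± 1.60 CPM in KO-SD and 39.9 ± 1.15 CPM in KO-TGF, and rose by 1.57 (SE 0.058, adjusted p = 9.02e-21) in WT and 1.07 (SE 0.056, adjusted p = 3.78e-17) in KO. The HIF subunit Hif1a fell by 0.42 and 0.49 in transcript level, Epas1, which encodes the other common HIF alpha subunit, fell by 1.22 and 1.61, and Egln1, a HIF prolyl hydroxylase, rose by 0.63 and 0.65. In KO against WT, Hif1a was higher by 0.30 and 0.23 and Epas1 lower at -0.92 and -1.30 in SD and TGF. Txnip, an inhibitor of glucose uptake, was higher in KO by 0.75 (SE 0.029, adjusted p = 5.09e-20) in SD and 0.73 (SE 0.029, adjusted p = 1.63e-19) in TGF, while its responses to TGF-β were -0.01 in WT and -0.04 in KO, which passed as falls with library size alone and with no other alternative. Hif1a, and the other values of Gys1 and Txnip that miss the rule for named genes, were picked with their values known.

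Of 20 tested among 22 other HIF target genes, 11 rose and 6 fell in WT, 11 rose and 7 fell in KO, 13 were higher and 6 lower in KO-SD, and 11 and 6 in KO-TGF, and with library size alone 9 rose and 9 fell in KO. The list moved in both directions, and the shares over all genes given with the regulators apply to it too. Vegfa, the vascular growth factor, rose by 1.14 (SE 0.028, adjusted p = 1.32e-25) in WT and 1.51 (SE 0.027, adjusted p = 4.57e-29) in KO, and P4ha1, a collagen prolyl hydroxylase, rose by 0.96 and 0.75. Adm, adrenomedullin, fell by 1.87 and 3.46 in the same order.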

How the data were processed

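The authors aligned 51-base single-end reads to mm10 with TopHat 2.1.1 and deposited raw counts per RefSeq gene from HTSeq-count 0.6.0 (reverse strand, minimum quality 10). The 5 summary lines for reads on no gene were left out of library sizes. Counts were fitted with edgeR 4.0.16 (R 4.3.3, quasi-likelihood test, TMM) over all 12 libraries, with Benjamini-Hochberg adjustment over 11530 genes and FDR <5%. Members under the RPKM limit were taken from the same model run on the 18565 genes with any count. Exon lengths came from GENCODE. Isoenzyme shares were compared by exact permutation tests. Alternatives were DESeq2 1.42.0, other scalings, filters and lengths, and fits without single libraries. The fit was checked on simulated data. The members and lists were chosen with earlier results of these data known. From each other list, genes past FDR <5% and 1.5-fold were named, at most the 4 with the largest change, and some are not reported here. Detection floors cover counting error only, and replicate numbers were not treated as a pairing in the main fit.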

Additional observations from a re-analysis of the deposited data

Results flagged for a closer look

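The TGF-β responses of 10 members differed between the genotypes past FDR <5% in the interaction test of edgeR (response in KO minus response in WT, log2 scale). Slc16a1 differed by -0.90, Pfkfb3 by -0.82, Slc16a3 by -0.68, Pdk4 by 0.40 and Pfkp by 0.25, and each of these kept its call in every alternative run. Pfkm differed by -0.28 and lost the call without replicate 2 of WT-TGF or of KO-TGF, and Pfkl differed by -0.19 and lost it without KO-TGF replicate 1. Ldha differed by -0.15, Slc2a1 by 0.14 and Pgam1 by -0.29, calls that were lost in 5, 7 and 10 alternatives. Counts of Pgam1 carry the limit that 41.4% of its windows occur in other genes. Pfkfb3 alone among the 30 members tested was called higher with TGF-β in WT and lower in KO, as were 102 of all 11530 genes tested.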

How the results depend on the processing

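Of the log2 fold changes of single genes recomputed under the alternatives, 4330 stayed on their side of FDR <5% (54 of them with the other sign, none of these called), 57 lost the call, 50 gained one in their direction, and 9 changed sign with a call in at least 1 of the fits. Library size alone gave member medians (log2) of 0.12 for TGF-β in WT, 0.0275 in KO, 0.20 for KO against WT in SD and 0.0902 in TGF, and -0.0897 for the interaction, with 11 members lower in TGF, and moved the median of all genes to -0.16, -0.23, -0.06 and -0.13 in the first 4. It turned Hk1 to -0.15 in WT and -0.14 in KO, Gpi1 to -0.11 and Bsg to -0.0256 in WT, Pfkl to -0.0525, Taldo1 to -0.19 and Bsg to -0.0812 in KO, and Pdha1 to -0.0804 and Pgd to -0.12 in KO-TGF against WT-TGF. DESeq2 gave medians of 0.25 in KO and -0.0162 for the interaction. Fits of only the groups compared gave 0.16 in KO and 0.31 in SD. No filter gave 0.25 in SD, 0.18 in TGF and -0.0866 for the interaction, and CPM over 1 in at least 3 libraries gave 0.18 in TGF and -0.0759. Leaving out genes with over 40% shared windows, chosen after seeing the data, gave 0.21, 0.0646, 0.16 and 0.17. Coding length turned the Pfkl share to -1.70 percentage points with TGF-β in KO and -0.281 in KO-TGF against WT-TGF, and the Pdk4 share to -1.42. The cause of these changes was not tested.

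Without single libraries the medians ranged from 0.24 to 0.30 in WT, 0.15 (without WT-TGF replicate 3) to 0.28 in KO, 0.26 to 0.33 in SD, 0.21 to 0.26 in TGF and -0.0688 to 0.0051 for the interaction (0.0051 without KO-TGF replicate 1), with 2 to 6 members higher and 4 to 9 lower.

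Deviations of libraries with the same replicate number had correlations of at most 0.0652. The labels do not say whether the numbers pair the libraries, and correlations this low cannot decide it. With the replicate block the interaction had 4 members higher in place of 3, Pgd passing at 0.12, and no other count of members changed.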
